A study of Mus musculus with 15 samples.

Results

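Prelid2, Plekha2, Clybl, Pcsk6, Spry3 and Ak4 are 6 genes that rose strongly in hypoxic mouse melanocytes and fell when Hif1a was silenced, and whose part in the hypoxic response is less often described than that of the glycolytic genes. They were chosen by these measured values: a large difference between hypoxic and normoxic cells, and a large fall with both siRNAs against Hif1a. All 6 had a probe set that the platform annotation ties to a single gene symbol, out of 22180 genes measured that way. Since the rise and the fall picked the members, both are given below as descriptions without a test. Tests are given for 3 other comparisons. Each is a sum or difference of comparisons that served in the choice, so their p-values are not independent of it.

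The product of Hif1a is the part of hypoxia-inducible factor 1 (HIF-1) whose stability depends on oxygen. HIF-1 is a transcription factor that accumulates when oxygen falls and binds DNA at a short core sequence, ACGTG or GCGTG, in the hypoxia response elements of its targets. In pigment cells, as in other cells, its best known targets raise glycolysis, restrain mitochondrial respiration and promote blood vessel growth. The 6 genes are less often described as part of that programme. Prelid2, Clybl and Ak4 encode mitochondrial or mitochondria-linked proteins, Plekha2 and Spry3 act in signalling at the cell membrane, and Pcsk6 encodes a secreted protease.

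RNA came from melan-Ink4a-Arf-1 (melan-a), one immortal melanocyte line, labelled as derived from Cdkn2a tm1RDp/tm1RDp mice, so every group lacked the Cdkn2a tumour suppressors. Every group also shared a medium that held cholera toxin at 200 pM and the phorbol ester TPA at 200 nM, both of which sustain melanocyte growth. There were 5 groups of 3 one-colour Affymetrix arrays, described as biological triplicates. Normoxic cells had about 21% oxygen and 10% CO2. The other 4 groups had 1% oxygen and 5% CO2 for 24 h, so the change in oxygen cannot be told apart from the change in CO2. One hypoxic group was labelled control (the hypoxia control) and one negative control, and the labels do not say what either received. Si1 and Si6 received one of 2 Hif1a siRNAs 24 h before hypoxia.

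The deposited values are log2 intensities, on which a difference of 1 is a doubling. A level can be compared between groups for one probe set, but not between probe sets. All 10 melanocyte markers were measured, with mean levels between 8.46 and 13.06, the highest for Tyrp1. Median levels of the keratinocyte, fibroblast, endothelial and leukocyte marker lists lay between 5.80 and 6.22. The brightest fibroblast and leukocyte markers reached 8.56, above the dimmest melanocyte marker. As these are different probe sets, the levels describe the arrays and do not rank the cell types. Hif1a mRNA was at 25.3% of the negative control with Si1 and 30.7% with Si6, on its brighter probe set. The dimmer one, with a mean of 5.40, moved by -0.01 and -0.07. Array pairs correlated at 0.9931 to 0.9957 within groups and 0.9782 to 0.9931 between groups. The labels do not say how the triplicates were grown, so a p-value measures the spread between these arrays. Bulk RNA cannot tell a lower level per cell from fewer expressing cells.

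Promoter sequences are shown to let the positions of the HIF-1 core be seen beside the values. Windows of 300 bases, from 250 before to 50 after an annotated transcript start, were taken from RefSeq (build GRCm38.p6). By symbol, 3 of the 6 members matched, Clybl, Pcsk6 and Ak4, and Prelid2, Plekha2 and Spry3 did not. Each sequence runs 5′ to 3′ on the plus strand, in lower case, with every ACGTG or GCGTG on either strand in capitals, so that CACGT and CACGC mark the opposite strand. The Clybl window is chr14:122181444-122181743, that of Pcsk6 is chr7:65861886-65862185, and those of Ak4 are chr4:101419039-101419338 and chr4:101419453-101419752.
Clybl: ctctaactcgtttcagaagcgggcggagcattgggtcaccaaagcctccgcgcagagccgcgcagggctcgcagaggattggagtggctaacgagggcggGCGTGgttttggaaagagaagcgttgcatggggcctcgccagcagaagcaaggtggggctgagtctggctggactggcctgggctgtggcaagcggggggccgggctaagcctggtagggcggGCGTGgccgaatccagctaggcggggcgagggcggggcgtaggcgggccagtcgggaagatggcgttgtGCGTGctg
Pcsk6: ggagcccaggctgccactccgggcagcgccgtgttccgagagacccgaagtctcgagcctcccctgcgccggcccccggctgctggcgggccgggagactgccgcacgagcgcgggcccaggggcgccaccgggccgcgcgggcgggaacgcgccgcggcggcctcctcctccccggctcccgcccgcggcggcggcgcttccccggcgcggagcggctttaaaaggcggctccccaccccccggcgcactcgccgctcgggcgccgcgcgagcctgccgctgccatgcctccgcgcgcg
Ak4 upstream start: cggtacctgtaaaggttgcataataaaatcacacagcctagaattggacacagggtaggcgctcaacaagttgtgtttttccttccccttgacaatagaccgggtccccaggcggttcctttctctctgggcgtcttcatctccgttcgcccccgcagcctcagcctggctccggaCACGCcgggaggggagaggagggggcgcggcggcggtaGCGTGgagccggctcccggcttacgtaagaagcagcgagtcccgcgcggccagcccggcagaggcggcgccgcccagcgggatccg
Ak4 downstream start: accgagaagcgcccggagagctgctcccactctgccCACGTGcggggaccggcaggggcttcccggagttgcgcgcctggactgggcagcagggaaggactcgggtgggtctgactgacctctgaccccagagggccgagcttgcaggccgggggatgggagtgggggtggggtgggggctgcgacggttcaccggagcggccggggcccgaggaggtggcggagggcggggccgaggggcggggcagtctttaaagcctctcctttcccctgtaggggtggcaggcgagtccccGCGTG

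The Clybl window held GCGTG 3 times, 150 and 27 bases before the start and 43 bases after it, and no ACGTG. The downstream Ak4 start had ACGTG on both strands of one overlapping palindrome, beginning 214 and 213 bases before the start, and a GCGTG 46 bases after it. The upstream Ak4 start had GCGTG at 2 places, 74 bases before the start on the opposite strand and 36 bases before it on the same strand. Another 2 annotated Ak4 starts gave windows that overlap this one. The Pcsk6 window, of which 81.7% is G or C, held neither sequence. These letters are common: of all 32851 windows, 19.6% held ACGTG, 32.4% held GCGTG and 43.8% held either on at least 1 strand. A match is a description of the sequence and not of binding, and no match says only that the letters are not in this window.

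Prelid2 showed the widest range of the 6. It belongs to the PRELI-like family, whose better studied members carry phospholipids between the mitochondrial membranes, and its own role is little known. Its log2 levels were 5.79, 5.59 and 6.07 in normoxia, 10.74, 10.59 and 10.86 in the hypoxia control, 10.74, 10.54 and 10.60 in the negative control, 6.83, 6.83 and 6.80 with Si1 and 6.88, 6.96 and 6.77 with Si6. Every hypoxic array without Hif1a siRNA lay far above every other array, and all siRNA arrays lay above all normoxic ones. The normoxic level of Prelid2 was dim, with a mean of 5.81, and differences of dim probe sets are compressed toward 0. The hypoxia control exceeded normoxia by 4.91 ± 0.10 (± here and below is limma's standard error of a difference, with 3 arrays per group), a 30.1-fold rise that ranked 1 of 22180 genes. Its difference from the negative control was -3.81 ± 0.10 with Si1 and -3.76 ± 0.10 with Si6, which left 7.15% and 7.39% of that level. The fall of the mean of both siRNAs ranked 2 of all genes.

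Clybl kept the highest share of its hypoxic level. It encodes citramalyl-CoA lyase, a mitochondrial enzyme that breaks down a product of itaconate and is linked to vitamin B12 metabolism. Its levels were 8.12, 8.08 and 8.29 in normoxia, 10.92, 10.83 and 10.80 in the hypoxia control, 10.92, 10.93 and 10.85 in the negative control, 9.47, 9.40 and 9.57 with Si1 and 9.27, 9.22 and 9.15 with Si6. The groups formed 4 tiers without overlap, from normoxia through Si6 and Si1 to both controls, which overlapped each other. The hypoxia control was 2.69 ± 0.07 above normoxia, a 6.45-fold difference and rank 10 of all genes. Its difference from the negative control was -1.42 ± 0.07 with Si1 and -1.69 ± 0.07 with Si6, leaving 37.4% and 31.0% of that level. Its fall with the mean of both ranked 53, the smallest fall of the 6.

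Ak4 was the member whose siRNA levels lay below normoxia. It encodes a nucleoside phosphate kinase of the mitochondrial matrix, a relative of the adenylate kinases that balance AMP, ADP and ATP. Its levels were 8.62, 8.74 and 8.74 in normoxia, 10.54, 10.52 and 10.36 in the hypoxia control, 10.53, 10.54 and 10.45 in the negative control, 7.90, 7.88 and 7.97 with Si1 and 8.01, 8.12 and 8.13 with Si6. All 6 siRNA arrays were below all 3 normoxic arrays, although the siRNA cells were hypoxic. The rise to the hypoxia control, 1.77 ± 0.06 or 3.41-fold, was the smallest of the 6 and ranked 35. Against the negative control it was at -2.59 ± 0.06 with Si1 and -2.42 ± 0.06 with Si6, or 16.6% and 18.7% of that level, and the mean of both ranked 9 among all falls.

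Plekha2 encodes TAPP2, an adaptor that binds the membrane lipid phosphatidylinositol 3,4-bisphosphate, a product of phosphoinositide 3-kinase signalling. Its levels were 6.69, 6.74 and 6.82 in normoxia, 9.67, 9.75 and 9.62 in the hypoxia control, 9.94, 9.82 and 9.88 in the negative control, 7.48, 7.32 and 7.68 with Si1 and 6.94, 6.95 and 6.89 with Si6. The siRNA groups did not overlap each other, and Si6 came close to normoxia. The hypoxia control was 2.93 ± 0.08 above normoxia, 7.63-fold and rank 7. Against the negative control the gene was at -2.38 ± 0.08 with Si1 and -2.96 ± 0.08 with Si6, leaving 19.2% and 12.9%. A second probe set of Plekha2 stayed between 6.44 and 6.91 on all 15 arrays. It was at 0.05 for the hypoxia difference, -0.13 with Si1 and -0.10 with Si6, so the 2 probe sets disagree. Averaging both gave a hypoxia difference of 1.49 and one of -1.39 for the mean of the siRNAs.

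Spry3 encodes a Sprouty protein, and Sprouty proteins restrain signalling from receptor tyrosine kinases to the ERK kinases. Its levels were 4.99, 4.76 and 4.93 in normoxia, 7.05, 7.03 and 6.88 in the hypoxia control, 7.55, 7.71 and 7.34 in the negative control, 5.04, 5.10 and 5.07 with Si1 and 5.05, 5.03 and 4.99 with Si6. The Si6 arrays overlapped the normoxic ones at 4.99, and the Si1 arrays lay just above them. The probe set is dim, and differences of dim probe sets are compressed toward 0. The hypoxia control was 2.09 ± 0.08 above normoxia, 4.26-fold and rank 25. Against the negative control it was at -2.46 ± 0.08 with Si1 and -2.51 ± 0.08 with Si6, or 18.1% and 17.6% of that level.

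Pcsk6 encodes PACE4, a secreted proprotein convertase that cuts growth factor and enzyme precursors into active forms. Its levels were 7.63, 7.49 and 7.62 in normoxia, 9.91, 9.83 and 9.77 in the hypoxia control, 10.83, 10.89 and 10.78 in the negative control, 8.28, 8.25 and 8.27 with Si1 and 7.90, 7.79 and 7.82 with Si6. Each of the 5 groups was separate from every other, with the negative control highest. The hypoxia control was 2.26 ± 0.06 above normoxia, 4.79-fold and rank 20, and the negative control was 3.25 ± 0.06 above normoxia. With Si1 16.9% of the negative control level was left and with Si6 12.5%, and the mean of both was at -2.78 ± 0.05. Measured from the hypoxia control instead, that mean was at -1.79 ± 0.05.

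**Figure D1:**
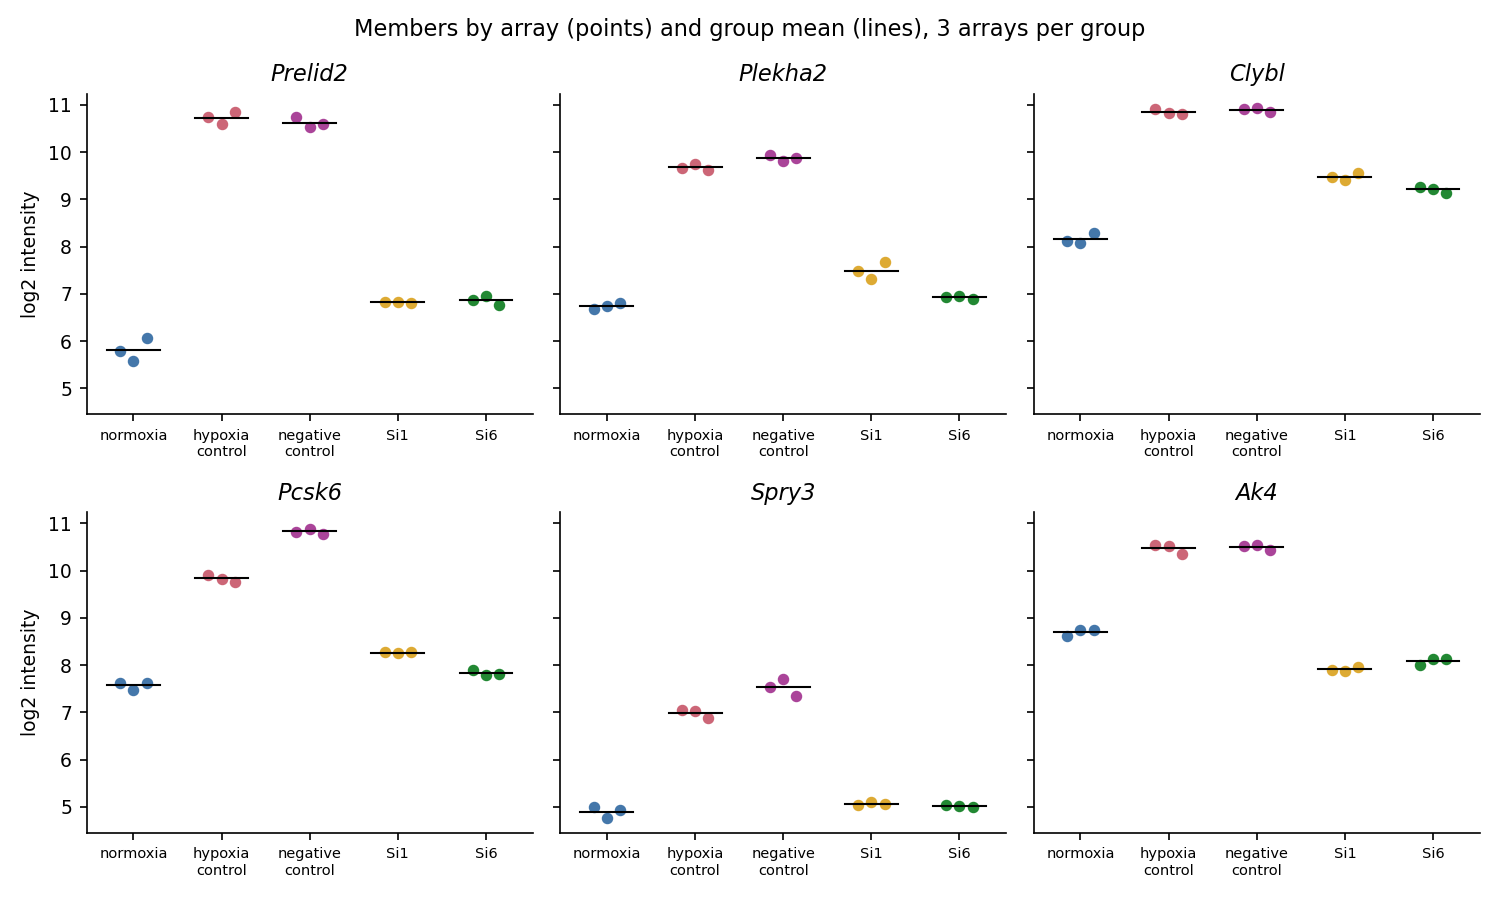
Log2 intensity (vertical axis, same range in each panel) of the 6 genes on each of the 15 arrays (points) with the mean of each group of 3 (lines). Levels can be read across groups within a panel but not between panels. Ak4 with Si1 and Si6 lies below its normoxic arrays, and Pcsk6 is highest in the negative control.

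In the plot of hypoxia against siRNA differences all 6 members lie at the lower right, where their selection places them. Over the members the median difference was 2.47 for hypoxia and -2.59 for the mean of the siRNAs, against -0.00 and -0.01 over all genes. The order of the members differed between the 2 axes. Clybl ranked above Pcsk6, Spry3 and Ak4 in the rise and below all of them in the fall. As a share of the log2 rise from normoxia to the negative control, the mean of both siRNAs removed 56.8% in Clybl, 78.6% in Prelid2, 85.3% in Plekha2, 85.5% in Pcsk6, 94.2% in Spry3 and 139% in Ak4. These shares describe values that served in the choice, and carry no test. Melanocyte markers moved in these comparisons too: 6 of 10 fell with hypoxia, where 11.2% of all genes were called lower. Their median level was 12.02 in normoxia and 11.56 in the hypoxia control. Against the negative control 6 of 10 fell with Si1 and 6 of 10 rose with Si6, with the share of all genes not counted for each siRNA. Their part in the members' values was not tested.

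**Figure D2:**
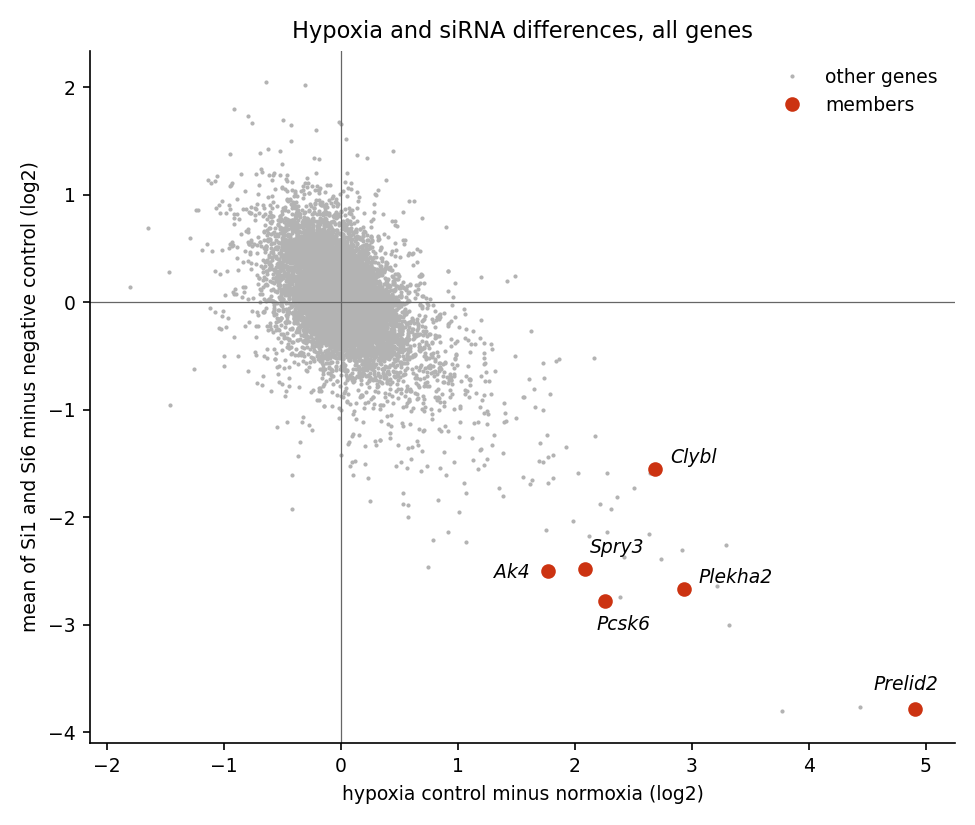
Each point is a gene, placed by the log2 difference of the hypoxia control from normoxia (horizontal axis) and of the mean of Si1 and Si6 from the negative control (vertical axis). The members (red, named) lie between 1.77 and 4.91 on the horizontal axis and between -3.78 and -1.55 on the vertical one.

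The hypoxic siRNA arrays were set against normoxia to see what was left of the hypoxic level. This difference is the sum of the rise to the negative control and the fall from it, which both served in the choice. The adjusted p-values here are therefore not independent of the choice. In the mean of the siRNA groups Prelid2, Clybl, Plekha2 and Pcsk6 were above normoxia, and Ak4 was below it. These groups differ from normoxia in oxygen, CO2 and, by the labels, siRNA, whose parts cannot be told apart here. They also kept 25.3% (Si1) and 30.7% (Si6) of the negative control's Hif1a mRNA. Between the hypoxic controls alone Pcsk6 differed by 0.99. In all, 4 of 6 members were called higher, where 20.8% of all genes were, and 1 was called lower, where 16.7% of all genes were. Clybl was 1.18 ± 0.06 higher (adjusted p = 2.6e-10), 2.27-fold, and Prelid2 1.03 ± 0.09 higher (adjusted p = 1.34e-07), 2.04-fold. Pcsk6 was 0.47 ± 0.05 higher (adjusted p = 1.17e-06) and Plekha2 0.46 ± 0.07 higher (adjusted p = 3.2e-05). With both Plekha2 probe sets averaged that difference was 0.21. Each of these 4 had all 6 siRNA arrays above all 3 normoxic ones, and how many of all genes were so separated was not counted. Ak4 was at -0.70 ± 0.05 (adjusted p = 3.99e-08), or 61.5% of its normoxic level. Spry3, at 0.15 ± 0.07 (adjusted p = 0.113), did not pass the test, and the 95% interval of its difference ran from -0.00 to 0.30. Of the other 122 genes that hypoxia raised at least 2-fold, 77 stayed higher than normoxia with the siRNAs, 12 were lower and 33 were not called. Ak4 thus shared its direction with 12 of those 122 genes. All 10 melanocyte markers were lower with the mean of the siRNAs than in normoxia, with median levels of 10.87 with Si1, 11.44 with Si6 and 12.02 in normoxia, and their part was not tested.

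The siRNAs differed in how far they lowered Plekha2, Pcsk6 and Clybl, which were all higher with Si1 than with Si6. The difference was 0.57 ± 0.08 for Plekha2 (adjusted p = 2.8e-05), 0.43 ± 0.06 for Pcsk6 (adjusted p = 2.58e-05) and 0.27 ± 0.07 for Clybl (adjusted p = 0.00515). In each the 3 Si1 arrays lay above the 3 Si6 arrays, a separation not counted over all genes. So limma called 3 of 6 members higher with Si1 and 0 lower (1, Ak4, at an unadjusted p under 0.05), where 14.5% and 13.4% of all genes were. Hif1a itself went the other way, at -0.28 ± 0.06 for Si1 less Si6 (adjusted p = 0.00118). Ak4 was at -0.17 ± 0.06 for Si1 less Si6, with no overlap between the arrays and an adjusted p of 0.0501, just outside the threshold of 0.05. Prelid2 and Spry3 were not called, with 95% intervals from -0.26 to 0.17 and from -0.13 to 0.22. Of the 122 other genes raised at least 2-fold, 35 were higher with Si1, 37 lower and 50 not called. All 10 melanocyte markers were lower with Si1 than with Si6, and their part was not tested. With both probe sets averaged, the Plekha2 difference was 0.27. Relative to normoxia, Plekha2 was at 0.75 ± 0.08 with Si1 (adjusted p = 7.83e-07) and 0.18 ± 0.08 with Si6, which was not called (adjusted p = 0.0989).

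Pcsk6 and Spry3 differed between the hypoxic controls, and the other 4 members were not called. Pcsk6 was 0.99 ± 0.06 higher in the negative control than in the hypoxia control (adjusted p = 3.3e-08), a 1.99-fold difference, and Spry3 0.55 ± 0.08 higher (adjusted p = 2.29e-04), 1.46-fold. In both genes the arrays of the 2 groups did not overlap, which was not counted over all genes. The count by limma was 2 of 6 higher and 0 lower (also 0 lower at an unadjusted p under 0.05), where 7.8% and 7.51% of all genes were called. Plekha2 was at 0.20 ± 0.08 (adjusted p = 0.102), Clybl at 0.05 ± 0.07, Ak4 at 0.03 ± 0.06 and Prelid2 at -0.10 ± 0.10. Their 95% intervals reached at most 0.36 in size, the upper bound for Plekha2. Of the 122 other genes raised at least 2-fold, 33 were higher in the negative control, 15 lower and 74 not called. The Sprouty, Spred and ERK feedback list holds genes that activate, restrain or read out ERK signalling. In it 9 of 20 genes were higher in the negative control and 2 lower, with a median of 0.20. Kitl was higher at 1.32 ± 0.06, Spry2 at 0.46 ± 0.06 and Spry4 at 0.55 ± 0.08, and Spry1 was lower at -0.25 ± 0.07. Melanocyte markers moved in the same comparison: 9 of 10 fell, and their median level was 11.56 in the hypoxia control and 11.08 in the negative control. Of 6 fibroblast markers 1 rose and 2 fell. Limma called 0 of 7 keratinocyte, 0 of 6 endothelial and 0 of 6 leukocyte markers there (0, 1 and 0 at an unadjusted p under 0.05). Their part in the Pcsk6 and Spry3 differences was not tested.

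**Figure D3:**
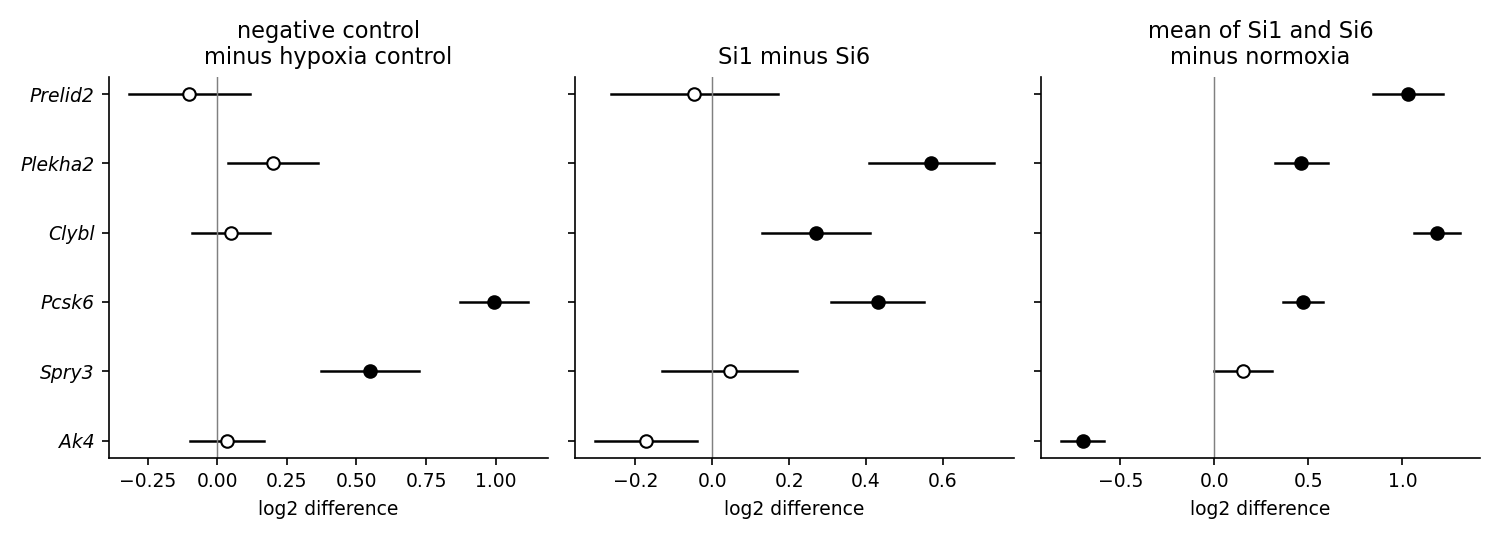
Log2 differences (points) with 95% intervals (lines) of the 6 genes in the 3 tested comparisons, from limma's fit to all 15 arrays. Filled points passed the test at an adjusted p under 0.05. Pcsk6 lies at 0.99 in the left panel, and Ak4 at -0.70 in the right one.

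The measured paralogs of the members changed less than the members. The hypoxia differences of the 11 direct paralogs measured ran from -0.43 to 0.51, below the smallest member's 1.77. Among them 3 rose and 5 fell with hypoxia, where 9.87% and 11.2% of all genes were called in those directions. With the mean of the siRNAs their differences ran from -0.53 to 0.71, with 4 higher and 2 lower, where 19.7% and 13.8% of all genes were called. Against the other hypoxic control 3 paralogs were higher and 3 lower with hypoxia, and 6 higher and 2 lower with the siRNAs. Whether a member and its paralog differ was not tested, since the members were picked for their change.

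**Figure D4:**
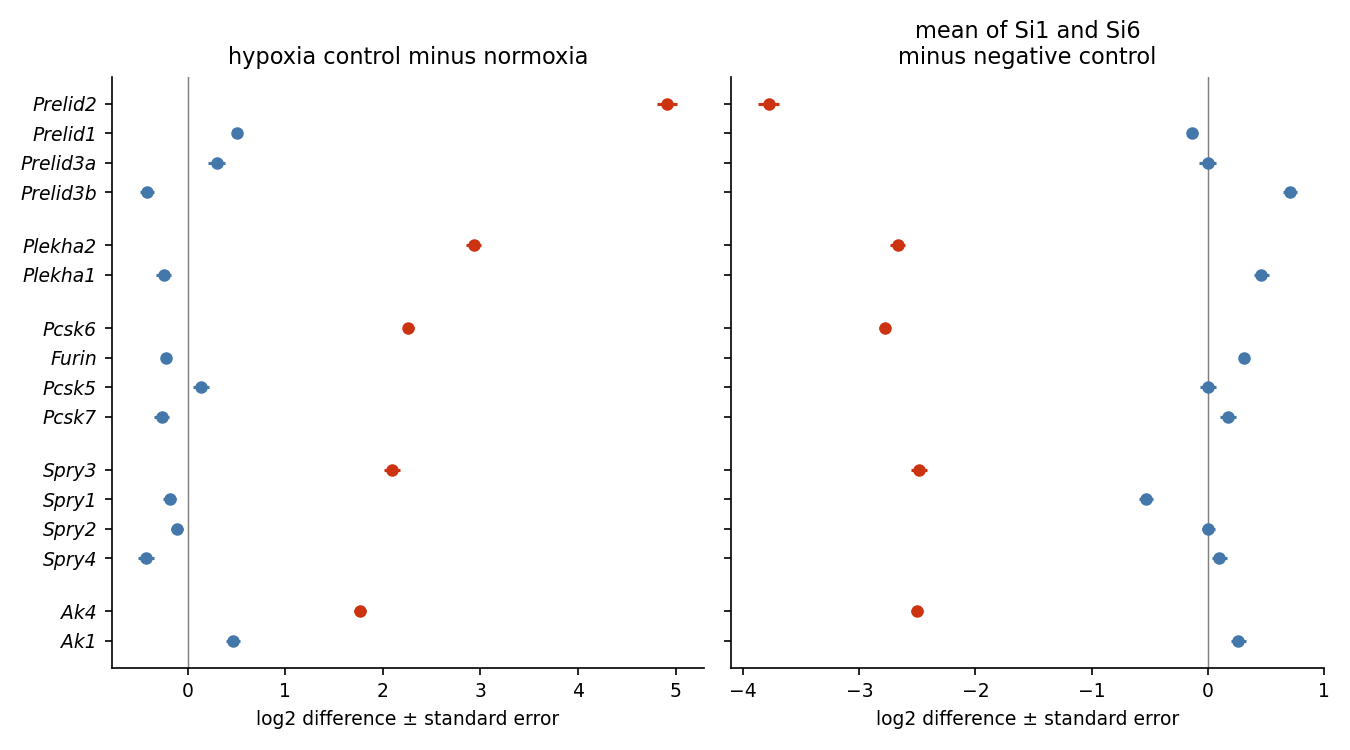
Log2 difference (horizontal axes, ± standard error) of 5 members (red) and their measured paralogs (blue) for hypoxia (left) and for the mean of both siRNAs (right). The paralogs lie between -0.53 and 0.71 in both panels, and the members beyond 1.77 on the left and -2.49 on the right.

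For the related genes, hypoxia differences are hypoxia control less normoxia and siRNA differences are from the negative control. The percentages of a list called stand beside 9.87% higher and 11.2% lower of all genes with hypoxia. With the mean of the siRNAs 19.7% of all genes were called higher and 13.8% lower. The value against the other hypoxic control is added where that ended a call, turned a direction or moved a value by over 1.5 times. In the PRELI-like and mitochondrial phospholipid list, Prelid1, which supplies phosphatidic acid for cardiolipin synthesis, rose with hypoxia by 0.51 ± 0.05 (adjusted p = 5.14e-06). Prelid3a rose too, by 0.30 ± 0.08 (adjusted p = 0.0192), while Prelid3b fell by 0.42 on the log2 scale (adjusted p = 3.86e-04). To the negative control neither passed, with Prelid3a at 0.20 and Prelid3b at -0.15. The Prelid3a call was also lost without normoxia replicate c (0.23) or without hypoxia control replicate a or c (0.29 and 0.27). With the mean of the siRNAs Prelid3b was 0.71 ± 0.06 higher (adjusted p = 2.01e-07) and Crls1, the cardiolipin synthase, 0.57 ± 0.06 higher (adjusted p = 1.43e-06), or 0.24 from the hypoxia control. Pgs1, an earlier enzyme of the cardiolipin pathway, was 0.49 ± 0.06 higher (adjusted p = 1.58e-05), with 0.77 for Si1 and an uncalled 0.20 for Si6. Of 11 measured genes 3 rose and 2 fell with hypoxia (27.3% and 18.2%, median -0.11). With the siRNAs 6 rose and 1 fell (54.5% and 9.09%, median 0.27). The medians over all genes were -0.00 and -0.01.

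In the list around Clybl (itaconate, propionate and B12 metabolism), 0 of 16 measured genes rose with hypoxia by limma's test (1 at an unadjusted p under 0.05) and 6 fell (37.5%). Pcca, a subunit of propionyl-CoA carboxylase, fell by 0.68 on the log2 scale (adjusted p = 7.3e-07), and Mmut, the B12-dependent methylmalonyl-CoA mutase, was at -0.44 ± 0.07 (adjusted p = 2.11e-04). With the mean of the siRNAs 9 rose and 1 fell. Mmachc, which processes B12, was 0.64 ± 0.06 higher (adjusted p = 2.48e-07) and Mtrr, which reactivates methionine synthase, 0.59 ± 0.07 higher (adjusted p = 7.57e-06). The list's medians were -0.03 and 0.19.

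Among the nucleotide kinases, listed for Ak4, 3 of 14 measured genes rose and 4 fell with hypoxia (21.4% and 28.6%). With the mean of the siRNAs 5 rose and 2 fell (35.7% and 14.3%), the falls near the 13.8% of all genes. The medians were -0.01 and 0.07. Ak1, the cytosolic adenylate kinase, rose with hypoxia by 0.46 ± 0.07 (adjusted p = 2.67e-04) and was higher again with the siRNAs by 0.26 ± 0.06 (adjusted p = 0.00412), the opposite of the Ak4 fall. Against the other control these were 0.70 and 0.50. The siRNA difference was 0.58 ± 0.07 with Si1 and an uncalled -0.05 ± 0.07 with Si6. Dtymk, the thymidylate kinase, fell with hypoxia by 0.48 on the log2 scale (adjusted p = 1.04e-05) and rose with the siRNAs by 0.56 ± 0.05 (adjusted p = 1.73e-07). Its hypoxia difference to the negative control was -0.24. Nme4, a mitochondrial nucleoside diphosphate kinase, rose with hypoxia by 0.38 ± 0.06 (adjusted p = 3.88e-04). Cmpk2, a mitochondrial UMP-CMP kinase, was at -0.36 ± 0.08 (adjusted p = 0.00422), or -0.60 to the negative control.

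In the list for Plekha2, genes that bind or turn over phosphoinositides, 8 of 17 rose and 3 fell with hypoxia (47.1% and 17.6%), with a median of 0.16. With the mean of the siRNAs 3 rose and 7 fell (17.6% and 41.2%), with a median of 0.01. Plekha1, the TAPP1 paralog, fell with hypoxia by 0.25 on the log2 scale (adjusted p = 0.0245) and rose with the siRNAs by 0.46 ± 0.06 (adjusted p = 2.78e-05). The hypoxia fall of Plekha1 was not called to the negative control (-0.02), nor without normoxia replicate b or c (-0.21 and -0.20) or hypoxia control replicate b or c (-0.23 and -0.22). Sntb1, a syntrophin, was 0.41 ± 0.05 higher with hypoxia (adjusted p = 3.57e-05) and at -0.85 ± 0.05 with the siRNAs (adjusted p = 1.33e-09). It fell more with Si1 (-1.34 ± 0.05) than with Si6 (-0.36 ± 0.05), whereas Plekha2 fell more with Si6, and the siRNA mean of Sntb1 was below normoxia, at -0.47 ± 0.05. Plekha4, a pleckstrin homology protein, was at 0.27 ± 0.07 with hypoxia (adjusted p = 0.00689), uncalled at 0.13 to the negative control, and at -0.60 ± 0.06 with the siRNAs (adjusted p = 6.33e-07). Inpp4b, a phosphatase that removes phosphatidylinositol 3,4-bisphosphate, was not called with hypoxia (-0.13 ± 0.08) and was at -0.62 ± 0.07 with the siRNAs (adjusted p = 4.15e-06), or -1.04 from the hypoxia control.

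In the Sprouty, Spred and ERK feedback list, 3 of 20 genes rose and 2 fell with hypoxia (15% and 10%), with a median of -0.02. With the mean of the siRNAs 3 rose and 7 fell (15% and 35%), with a median of -0.08. These counts depended on the control: to the negative control 12 rose and 3 fell with hypoxia, and from the hypoxia control 9 rose and 3 fell with the siRNAs. Spry1 was at -0.53 ± 0.06 with the mean of the siRNAs (adjusted p = 3.55e-06), made of -0.88 ± 0.07 with Si1 and an uncalled -0.18 ± 0.07 with Si6. Spry4 fell with hypoxia by 0.43 on the log2 scale (adjusted p = 8.31e-04) but was at 0.12 ± 0.08 to the negative control, which was not called. Spry2 passed neither test. The mean hides opposite changes in Spry2, at 0.40 ± 0.06 with Si1 and -0.39 ± 0.06 with Si6, and in Spry4, at 0.48 ± 0.08 and -0.28 ± 0.08. Dusp5, an ERK phosphatase, was at 1.68 ± 0.10 with Si1 and -0.49 ± 0.10 with Si6, whereas Spry3 fell alike with both. Kitl, which encodes the ligand of the melanocyte receptor Kit, rose with hypoxia by 1.22 ± 0.06 (adjusted p = 1.97e-09), and by 2.54 ± 0.06 to the negative control. With the siRNAs Kitl was at -0.15 ± 0.06 with Si1, which was not called, and -0.88 ± 0.06 with Si6, and the mean of both was -0.52 from the negative control and 0.80 from the hypoxia control. Etv5, a transcription factor induced by ERK signalling, was at -0.79 ± 0.06 with the mean of the siRNAs (adjusted p = 2.62e-08), or -0.33 from the hypoxia control. Dusp4, another ERK phosphatase, was at -0.53 ± 0.05 with hypoxia (adjusted p = 2.31e-06).

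Among proprotein convertases and their partners, 1 of 16 measured genes rose and 3 fell with hypoxia (6.25% and 18.8%), with a median of -0.02. The gene that rose was Adamts4, a matrix protease, at 0.83 ± 0.07 (adjusted p = 6e-07), which was at -0.88 ± 0.06 with the siRNAs (adjusted p = 2.53e-08). Furin, the best known convertase, fell with hypoxia by 0.23 on the log2 scale (adjusted p = 0.00324) and rose with the siRNAs by 0.31 ± 0.04 (adjusted p = 2.68e-05). Tgfb1, a growth factor made as a precursor, was at -0.67 ± 0.07 with hypoxia (adjusted p = 4.13e-06) and 0.80 ± 0.06 higher with the siRNAs (adjusted p = 5.13e-08). Against the other control the hypoxia difference was -0.36 for both Furin and Tgfb1, and the siRNA difference of Furin was 0.18. Pcsk7, another convertase, was at -0.27 ± 0.08 with hypoxia (adjusted p = 0.0214), a call lost without normoxia replicate b or c (-0.26 and -0.24) or hypoxia control replicate a or c (-0.22 and -0.27). In this list 2 genes rose and 4 fell with the siRNAs (12.5% and 25%).

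Likeness between genes was measured as the root-mean-square difference, over all 15 arrays, of the log2 value less the normoxia mean, so that a small value means a like response in direction and size. It is a description, and the genes near a member share its arrays. For Prelid2 the nearest gene was Bnip3, a mitophagy receptor, at 0.40, then Stc1 (0.83) and Fam162a (0.96). For Clybl it was Higd1a, a mitochondrial hypoxia protein, at 0.21, then Hk2, a hexokinase (0.31), and P4ha2, a collagen prolyl hydroxylase (0.32). For Ak4 it was Epm2a, the glycogen phosphatase laforin, at 0.25, then Pfkl, a phosphofructokinase (0.30). Spry3 was nearest to Egln3, a HIF prolyl hydroxylase (0.24), Gbe1, the glycogen branching enzyme (0.26), and Armh4 (0.28). Plekha2 was nearest to Car9, a carbonic anhydrase (0.28), and Vldlr, a lipoprotein receptor (0.31), and Pcsk6 to Plekha2 (0.32). Among the 15 pairs of members, Plekha2 with Pcsk6 (0.32) and Pcsk6 with Spry3 (0.37) were closest, and Prelid2 with Ak4 (2.24) were farthest apart.

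The chromosomal neighbours of the members were examined after the values were seen, as the nearest measured protein-coding gene on each side in the RefSeq order. Of 12 neighbours 3 rose and 3 fell with hypoxia, where 9.87% and 11.2% of all genes were called. Their differences ran from -0.38 to 0.35. With the mean of the siRNAs 3 rose and 3 fell, from -0.40 to 0.40, where 19.7% and 13.8% of all genes were called. None approached its member, but the members were picked for large changes, so this comparison was largely set by the choice. Tacc1, beside Plekha2, and Tmlhe, a carnitine synthesis enzyme beside Spry3, moved in the members' direction. Tacc1 was 0.33 ± 0.05 higher with hypoxia (adjusted p = 2.72e-04) and -0.38 ± 0.05 with the siRNAs (adjusted p = 6.98e-06). Tmlhe was 0.35 ± 0.06 higher (adjusted p = 3.78e-04) and -0.40 ± 0.05 with the siRNAs (adjusted p = 9.94e-06). To the negative control Tacc1 was uncalled at 0.08 and Tmlhe at 0.22 with hypoxia, and from the hypoxia control Tacc1 was at -0.63 with the siRNAs.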

How the data were processed

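The deposited values are log2 intensities of 41345 probe sets on 15 arrays, made by the authors. The submitters' processing notes name RMA, which normalizes between arrays, and Partek. Versions and filters: not given in the sources used here. Normalization to like distributions hides a change of all genes together and compresses differences of dim probe sets. The table has no detection calls. Probe sets with 1 gene symbol in the platform annotation (23521) were used, and for the 1082 genes with several the one with the highest mean over all arrays, which left 22180 genes.

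Group means were fitted to all 15 arrays with limma 3.58.1 in R 4.3.3 (eBayes, no covariates). Tests were two-sided, adjusted by Benjamini-Hochberg over all genes, with a threshold of 0.05. The script was tested on simulated data. Precision is limited by the number of arrays, 3 in each group.

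The members and the lists of related genes and cell type markers were chosen with earlier results of these data known. Named genes are the members, Hif1a, the 5 genes nearest each member by root-mean-square difference, direct paralogs, and up to 4 genes per list with the largest called change in hypoxia or the siRNA mean. The chromosomal neighbours were added later. Genes without an established symbol were left unnamed. Alternatives were median centring, quantile normalization, a filter on the dimmest 25% of genes, eBayes with trend and robust settings, only the compared groups, the replicate letter as a block, averaged probe sets, array weights, the other hypoxic control, and each array left out once. The other hypoxic control for the related genes was added after seeing the data. Promoter windows were searched on both strands (Python 3.11.15).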

Additional observations from a re-analysis of the deposited data

Results flagged for a closer look

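The effect of the siRNAs on 3 members differed between Si1 and Si6 by a test of the difference itself. On the log2 scale, Si1 less Si6 was 0.571 for Plekha2 (limma adjusted p = 2.8e-05), 0.431 for Pcsk6 (adjusted p = 2.58e-05) and 0.27 for Clybl (adjusted p = 0.00515). In each gene 3 of 3 Si1 arrays lay above all Si6 arrays, a separation not counted over all genes.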

How the results depend on the processing

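Each of the 3 tested comparisons was recomputed under 23 alternatives, 15 of them leaving out one array. The number of members called stayed within 2 to 3 for the negative control against the hypoxia control, 3 to 4 for Si1 against Si6, and 5 to 6 for the siRNA mean against normoxia. Every call reported held in all of them, for the 6 members in these 3 comparisons. Ak4 between the siRNAs passed in 9 of 23 (adjusted p from 0.0253 to 0.15). Spry3 against normoxia passed with quantile normalization (0.19, adjusted p = 0.0492; 0.0492 to 0.458 over all). Plekha2 between the hypoxic controls passed without Si1 replicate b or c (adjusted p = 0.0488 and 0.0361; 0.0361 to 0.302 over all). The Ak4 difference between the hypoxic controls, never called, turned from 0.034 to -0.025 without hypoxia control replicate c, and ran from -0.025 to 0.069 over the arrays left out. The median rise of the members, 2.47, was 2.17 with averaged probe sets and 2.93 when taken to the negative control. The median fall, -2.59, was -2.50 with averaged probe sets and -2.20 when taken from the hypoxia control. Under the last of these Pcsk6 was at -1.79 instead of -2.78, Spry3 at -1.94 instead of -2.49 and Plekha2 at -2.47 instead of -2.67. Taken to the negative control, the rise was 3.25 instead of 2.26 for Pcsk6, 2.64 instead of 2.09 for Spry3 and 3.13 instead of 2.93 for Plekha2. The replicate letters were not shown to pair the arrays: 3 of 30 same-letter pairs of arrays correlated over 0.1 in their deviations, and 4 of 15 arrays correlated best with their own letter. With the replicate block 5 members were called against normoxia, as without it. The family lists had 32 to 46 of 94 genes called with hypoxia (38 as reported) and 45 to 53 with the siRNA mean (50). Against the other hypoxic control, chosen after seeing the data, these counts were 53 and 60. There Spry4 turned from -0.43 to 0.12 with hypoxia and Kitl from -0.52 to 0.80 with the siRNA mean. Under the other 23 alternatives 3 of 41 called differences of the named related genes lost their call, Prelid3a, Plekha1 and Pcsk7 with hypoxia, and 0 changed direction. The absence of detection calls limits dim values such as those of Spry3, and of Prelid2 in normoxia.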
